A study of Mus musculus with 23 samples.

Results

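Tumors given an antibody against PD-1 (aPD1) were compared between hosts of responder (R) and non-responder (NR) lines. Of the 23 MC38 tumors sequenced, the 11 whose labels name aPD1 were taken, 6 from R and 5 from NR hosts. MC38 is a mouse colon carcinoma line, and its cells were placed under the skin of female mice aged 8 to 12 weeks. One intraperitoneal dose of 200 µg aPD1 (clone 29F.1A12) was given at a tumor volume of 75 to 110 mm3, and the tumor was taken 48 h later. The other 12 tumors received the 2A3 isotype antibody at the same dose and are used for comparison.

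Every host was an F1 mouse of C57BL/6J and a Collaborative Cross line, a recombinant inbred line bred from several founder strains. All hosts thus shared one C57BL/6J genome copy and the same tumor line. The R hosts were C57BL/6J x CC001/UncJ, C57BL/6J x CC002/UncJ and C57BL/6J x CC075/UncJ (CC001F1, CC002F1 and CC075F1), with 2 tumors each. The NR hosts were C57BL/6J x CC036/UncJ and C57BL/6J x CC079/TauUncJ (CC036F1 and CC079F1), with 2 tumors each, and C57BL/6J x CC080/TauUncJ (CC080F1), with 1 tumor. The class of a line was taken from the study's text, since the labels give only the line. Each class held 3 lines, so class and the genotypes of these lines cannot be told apart. Per the labels tumors were biological replicates, but tumors of a line share its genotype.

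PD-1 is an inhibitory receptor of activated T cells, and antibodies that block it release those cells from inhibition by its ligand PD-L1 on tumor and myeloid cells. Activated T and NK cells secrete interferon gamma (IFN-γ), which acts through transcription factors such as IRF1 and induces chemokines, guanylate-binding proteins, immunity-related GTPases and genes of antigen presentation. Through CIITA it also induces MHC class II, by which dendritic cells and macrophages present peptides to CD4 T cells.

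The 11 libraries held 14494014 to 71868253 expected counts (estimated reads per gene). Of these, 2 were shallow (1 R and 1 NR) and 9 deep. Values below are normalized counts, that is counts divided by the DESeq2 size factor of the library. Single tumors carried transcripts of other tissue. Summed normalized counts of 25 skeletal muscle genes were 46544 in CC001F1 replicate 1 and 16999 in CC075F1 replicate 1, and at most 5034 in the other tumors. Genes of lymph node vessels and stroma summed to 563 in CC079F1 replicate 1 and 779.7 in CC080F1 and to at most 17.2 elsewhere, and B cell genes to 3301 and 8804 in these tumors and to at most 1754 elsewhere. Shisal2b, a transcript used as a marker of MC38 cells, had 634, 864 and 1099.6 in R and 585, 810.3, 722, 724 and 627 in NR tumors and was not called.

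On the first principal component of the 12454 genes with a mean of at least 100 counts, with 32.5% of the variance, R and NR tumors did not overlap. R tumors scored 2.40 to 41.64 and NR tumors -35.16 to -8.98, and CC001F1 replicate 1 was the R tumor closest to the NR tumors. The second component, with 17.99% of the variance, set the CC036F1 tumors (-17.6 and -30.74) apart from those of CC079F1 and CC080F1 (17.54, 18.24 and 27.4).

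**Figure D1:**
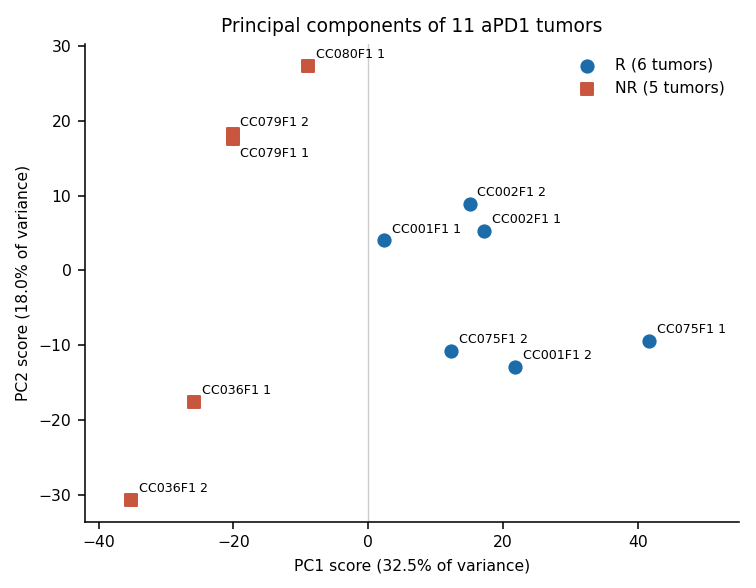
Scores of the 11 aPD1 tumors on the first and second principal components of log-scale expression (axes, with the percent of variance), marked by class and labelled with host line and replicate. R tumors scored 2.40 to 41.64 on the first component and NR tumors -35.16 to -8.98, and the second component set the CC036F1 tumors apart from CC079F1 and CC080F1.

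Across all genes, 1361 of 17161 tested (7.93%) differed between R and NR tumors at a DESeq2 adjusted p under 0.05. Of the genes tested, 1019 were higher in R (5.94%) and 342 lower (1.99%). Higher genes had a median log2 difference (R minus NR) of 0.83 and lower genes of -0.37, against -0.01 over all genes tested. The classes did not overlap for 416 of the 1019 and 148 of the 342, where 2.65% of all genes tested lay higher and 1.24% lower in R without overlap. edgeR, which called 1.93% of the 24928 genes it fitted higher and 0.313% lower, kept 478 of the higher and 77 of the lower calls. limma with host line fitted as a random effect called 0.726% and 0.0722% of these 24928 and kept 172 and 17. That fit used a single within-line correlation of 0.099 for all genes, so a line effect particular to a gene was not modeled. Of the 17161 genes that DESeq2 tested, edgeR called 478 higher and 77 lower, and limma 178 and 17. Without the 4 tumors that carried muscle or lymph node transcripts, where 5.28% were called higher and 1.08% lower, 708 and 92 held. The number of lower genes was 197 without CC075F1 replicate 1, 200 without CC036F1 replicate 1 and 202 without CC001F1 replicate 2. In bulk tissue, fewer cells of a type and less RNA per cell cannot be told apart.

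A total of 26 genes are named for the size of their difference, 14 higher and 12 lower in R. To be named, a gene had to be called by DESeq2, by edgeR and in each of the 11 fits that left out 1 tumor. Its classes also had to lie without overlap, so these traits were set by the rule and are not results. All 26 were also called on counts summed per line (where 5.08% of all genes were) and without the 4 tumors named above. In limma with line, 7 of the 14 and 10 of the 12 held. In what follows, R tumors are given by the lowest, median and highest normalized count. NR tumors are given each, in the order CC036F1 replicates 1 and 2, CC079F1 replicates 1 and 2, and CC080F1. Differences are on the log2 scale, R minus NR, with the DESeq2 standard error, which treats tumors of a line as independent. Coordinates are of GRCm38.

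**Figure D2:**
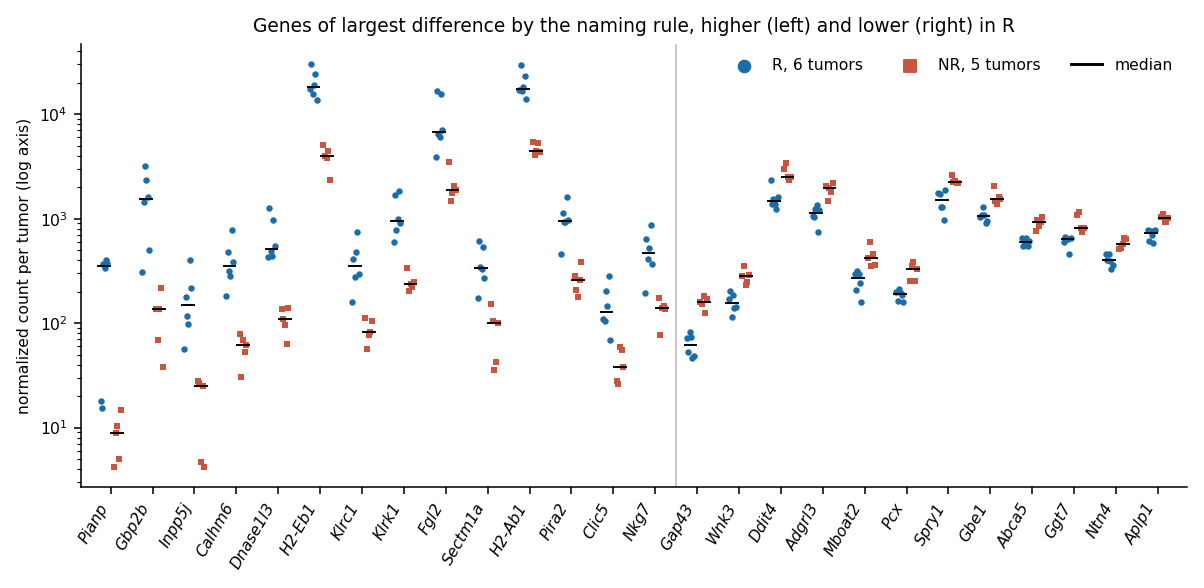
Normalized count per tumor (log axis) of the 26 genes named for the size of their difference, for the 6 R and 5 NR tumors. The naming rule required every R tumor to lie above every NR tumor for the 14 higher genes and below for the 12 lower genes. The differences were larger among the higher genes (log2 1.90 to 4.87) than among the lower (0.52 to 1.31 in size).

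MHC class II genes were higher in R tumors in every fit. Of 11 tested, 8 were higher and none lower, with a median log2 difference of 1.29. All 8 were also called by edgeR, by limma with line, without the 4 tumors and in each fit that left out 1 tumor, and none of the 8 overlapped between classes. H2-Ab1, a beta chain of the class II molecule (ENSMUSG00000073421, chromosome 17, 34257689 to 34269419), had 13867, 17538 and 29413 in R and 5403, 4073, 4396, 5336 and 4316 in NR tumors. The lowest R tumor held more than every NR tumor, and the difference was 2.07 ± 0.17 (DESeq2 adjusted p = 1.04e-31). H2-Eb1, another beta chain (ENSMUSG00000060586, chromosome 17, 34305867 to 34316674), had 13678, 18138 and 30239 in R and 5117, 4012, 3769, 4421 and 2348 in NR tumors, a difference of 2.34 ± 0.25 (DESeq2 adjusted p = 3.52e-17). CC001F1 replicate 2 was the highest R tumor and CC075F1 replicate 2 the lowest for both.

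The class II transactivator Ciita had 975, 1193 and 2106 in R and 367, 276, 396, 439 and 619 in NR tumors, without overlap, and differed by 1.73 ± 0.23 (DESeq2 adjusted p = 4.32e-11). Cd74, the invariant chain that escorts class II molecules, differed by 1.86 ± 0.17, the alpha chain H2-Aa by 1.79 ± 0.17 and the peptide exchange factor H2-DMa by 1.29 ± 0.12. The 3 members not called, H2-DMb2, H2-Oa and H2-Ob, are named after their values were seen, and each was highest in CC080F1 and next in CC079F1 replicate 1, the tumors with lymph node transcripts. Related MHC genes may share reads, founder haplotypes may align unequally, and H2-Eb1 overlaps the gene model Gm20513, so values of single MHC genes are less certain than their errors state.

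MHC class I presentation ran the same way with smaller differences. Of 15 genes tested 9 were higher, none lower, and the median was 0.31. The peptide transporter Tap1 had 10060.4, 12374 and 15028 in R and 9970.2, 8231, 5954, 7913 and 6047 in NR tumors, a difference of 0.71 ± 0.14 (DESeq2 adjusted p = 6.07e-05). CC036F1 replicate 1 came close to the lowest R tumor, CC001F1 replicate 1. The immunoproteasome subunits Psmb9 and Psmb8 differed by 0.48 ± 0.10 and 0.27 ± 0.07, and the heavy chain H2-K1 by 0.43 ± 0.11. Psmb9 and Tap1 overlap in the genome, and whether counting used strand is not given in the sources used here. Whether their transcripts share bases was not tested, so some of their reads may be shared. edgeR called 3 of the 9 and limma with line 2, and 4 were called without the tumors with lymph node transcripts.

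Genes of the IFN-γ pathway were higher in R tumors in part. Of 15 signaling genes 7 were higher and none lower, with a median of 0.50. Ifng, the ligand, had 56.1, 164 and 321 in R and 57.3, 42.5, 9.46, 12.5 and 17.8 in NR tumors. CC001F1 replicate 1 was the lowest R tumor and lay just under CC036F1 replicate 1, the highest NR tumor, and the difference was 2.59 ± 0.47 (DESeq2 adjusted p = 4.39e-06). The transcription factor Irf8 differed by 1.05 ± 0.19. edgeR called 4 of the 7 and limma with line 1. The count was 11 without CC036F1 replicate 1 and 4 without the tumors with lymph node transcripts.

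Guanylate-binding proteins, GTPases that act against intracellular microbes, had 9 of 11 members higher and none lower (median 0.90). Gbp2b (ENSMUSG00000040264, chromosome 3, 142594847 to 142619179) had 311, 1527 and 3221 in R and 136, 68.9, 135, 218 and 37.7 in NR tumors. No R tumor overlapped the NR tumors, although CC001F1 replicate 1 and CC075F1 replicate 2 stayed far below the other R tumors, and the difference was 3.73 ± 0.63 (DESeq2 adjusted p = 6.71e-07). Gbp11 differed by 2.09 ± 0.38, Gbp8 by 1.49 ± 0.31, Gbp7 by 0.77 ± 0.17 and Gbp2 by 0.83 ± 0.25. edgeR called 7 of the 9 and limma with line 2.

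Of 9 immunity-related GTPases, another family of cell-autonomous defense, 7 were higher and none lower (median 1.00). Ifi47 had 2878, 4123 and 5907 in R and 3062, 2047, 2005, 2639 and 2416 in NR tumors, where CC036F1 replicate 1 exceeded the lowest R tumor, and differed by 0.85 ± 0.18. Tgtp2 differed by 1.27 ± 0.32, Tgtp1 by 1.43 ± 0.38 and Irgm2 by 0.91 ± 0.29. edgeR called 3 of the 7 and limma with line none. The count was 3 without CC001F1 replicate 2, CC075F1 replicate 1, CC079F1 replicate 2 or CC080F1, 4 without CC036F1 replicate 2 or CC079F1 replicate 1, and 1 without both tumors with lymph node transcripts. Members of both families are similar in sequence, so the split of reads among them is uncertain.

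Antiviral interferon-stimulated genes, which respond to type I interferon, depended on single tumors. DESeq2 called 7 of 22 higher and none lower (median 0.48), while edgeR and limma with line called none of them. The count was 1 without CC079F1 replicate 1, 2 without CC036F1 replicate 2 or CC079F1 replicate 2, 3 without CC075F1 replicate 1 or CC036F1 replicate 1, and 11 without CC001F1 replicate 1. The RNA sensor Dhx58 differed by 0.77 ± 0.20, Ifit2 by 0.69 ± 0.21 and Oas1a by 0.64 ± 0.19. Isg15, a ubiquitin-like protein, had 776, 1016 and 1997 in R and 1069, 786, 835, 882 and 1092 in NR tumors and was not called (0.30 ± 0.20, DESeq2 adjusted p = 0.461). In isotype tumors the median of the list was -0.18, with 4 members lower in R.

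CXCR3, a receptor of effector T and NK cells, and its interferon-induced ligands had 3 of 4 members higher. Cxcl9 had 9006, 16973 and 23950.3 in R and 10273, 3595, 2467, 4747 and 2459 in NR tumors. CC036F1 replicate 1 exceeded the lowest R tumor, CC001F1 replicate 1, and the difference was 1.83 ± 0.45 (DESeq2 adjusted p = 0.00154). Cxcl11 differed by 2.21 ± 0.55 and Cxcr3 by 1.34 ± 0.46. The member not called, Cxcl10, had 5759, 8875 and 12807 in R and 9095, 6634, 4341, 5855 and 4736 in NR tumors (0.58 ± 0.25). Of 12 CC chemokines and receptors 2 were higher, among them Ccr1 (0.45 ± 0.10), without overlap, and Ccl2, a ligand that attracts monocytes, was not called (-0.24 ± 0.19).

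Interferon motifs were looked up in promoter windows from 250 bases before to 50 after the RefSeq start site (GRCm38.p6). The motifs were GAS (TTCNNNGAA, the same on both strands) and ISRE (GAAANNGAAA on either strand), the latter bound by IRF factors. Of 17159 tested symbols 11640 had a window. ISRE letters stood in 3.97% of all windows, in 9.17% of the 774 for genes called higher and in 3.69% of the 244 for genes called lower, and GAS letters in 8.44%, 11.6% and 7.79%. All 5 guanylate-binding proteins and 5 of 6 immunity-related GTPases that had a window held ISRE letters. So did 9 of 16 antiviral interferon-stimulated genes, 3 of 12 for MHC class I, 2 of 12 for IFN-γ signaling and 1 of 8 for MHC class II. Of the T cell receptor complex 0 of 9 did, and of macrophage and monocyte genes 0 of 10. A match is a description of letters and not of binding.

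The windows of 5 genes higher in R are printed 5′ to 3′ to show these letters beside the genes they adjoin, with the match in capitals. Gbp2b, Calhm6 and Gbp2 hold ISRE letters. The transcription factor gene Irf1 (0.44 ± 0.13) and the Fc receptor gene Fcgr1 hold GAS letters. A second window of Irf1, at chr11:53770223-53770522, holds neither and is not printed. They were picked after their values were seen.
Gbp2b, chr3:142594597-142594896, plus strand: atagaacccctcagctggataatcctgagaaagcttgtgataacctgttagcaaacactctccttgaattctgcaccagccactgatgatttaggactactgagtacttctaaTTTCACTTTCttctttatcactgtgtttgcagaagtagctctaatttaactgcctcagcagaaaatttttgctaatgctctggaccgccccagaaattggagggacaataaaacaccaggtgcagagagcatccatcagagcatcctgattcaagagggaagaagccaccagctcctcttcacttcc
Calhm6, chr10:34127923-34128222, minus strand: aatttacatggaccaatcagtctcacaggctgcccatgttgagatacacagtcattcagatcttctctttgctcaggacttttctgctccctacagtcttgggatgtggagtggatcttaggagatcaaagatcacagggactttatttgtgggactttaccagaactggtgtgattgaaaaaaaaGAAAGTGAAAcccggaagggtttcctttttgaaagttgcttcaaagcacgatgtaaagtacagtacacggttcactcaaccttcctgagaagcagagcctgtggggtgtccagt
Gbp2, chr3:142620413-142620712, plus strand: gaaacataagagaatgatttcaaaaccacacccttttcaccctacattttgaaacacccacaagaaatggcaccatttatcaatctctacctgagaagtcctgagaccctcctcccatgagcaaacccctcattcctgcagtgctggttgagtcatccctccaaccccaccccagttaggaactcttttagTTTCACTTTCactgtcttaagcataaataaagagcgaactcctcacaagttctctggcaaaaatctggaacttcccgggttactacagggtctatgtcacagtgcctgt
Irf1, chr11:53769764-53770063, plus strand: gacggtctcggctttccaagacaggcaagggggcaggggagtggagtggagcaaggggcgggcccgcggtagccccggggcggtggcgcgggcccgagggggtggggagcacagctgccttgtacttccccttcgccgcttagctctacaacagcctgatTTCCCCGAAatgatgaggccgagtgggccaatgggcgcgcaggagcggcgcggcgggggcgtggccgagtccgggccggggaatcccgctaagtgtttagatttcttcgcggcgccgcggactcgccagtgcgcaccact
Fcgr1, chr3:96293920-96294219, minus strand: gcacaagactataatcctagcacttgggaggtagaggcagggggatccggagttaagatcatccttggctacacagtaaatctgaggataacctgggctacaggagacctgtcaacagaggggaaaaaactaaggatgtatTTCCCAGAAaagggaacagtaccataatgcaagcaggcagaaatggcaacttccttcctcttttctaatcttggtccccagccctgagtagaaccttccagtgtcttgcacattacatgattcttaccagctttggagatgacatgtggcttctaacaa

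T cell transcripts were higher in R tumors, less surely than class II. Of 18 genes of the T cell receptor complex and coreceptors 10 were higher and none lower (median 1.11). Cd8a, a coreceptor of cytotoxic T cells, had 337, 726 and 1396 in R and 290.5, 131, 159, 138 and 379 in NR tumors. Of the R tumors CC001F1 replicate 1 fell below CC080F1, the highest NR tumor, and the difference was 1.87 ± 0.44 (DESeq2 adjusted p = 0.000948). Cd3e, a chain of the receptor complex, had 133, 250.01 and 445 in R and 88.7, 44.6, 113, 47.6 and 162 in NR tumors, with the same pair overlapping (1.58 ± 0.36). Cd3g, another chain of the complex, differed by 1.70 ± 0.38. The summed level of the list was 2971 to 10573 in R and 1615 to 4448 in NR tumors.

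edgeR called 5 of these 10 T cell genes and limma with line none. The count was 17 without CC080F1 and 16 without both tumors with lymph node transcripts. It was 5 without CC036F1 replicate 1 and 6 without either CC002F1 tumor, CC075F1 replicate 1, CC036F1 replicate 2 or CC079F1 replicate 2.

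Cytotoxic effectors had 7 of 15 members higher and none lower (median 1.23). Nkg7, a granule protein of killer cells (ENSMUSG00000004612, chromosome 7, 43437073 to 43438249), had 192, 472 and 876 in R and 173, 77.7, 141, 145 and 137 in NR tumors. Every R tumor lay above the NR tumors, CC001F1 replicate 1 only just, and the difference was 1.90 ± 0.31 (DESeq2 adjusted p = 1.88e-07). Granzyme B (Gzmb) had 460.5, 1608 and 3727 in R and 502, 393, 665, 702 and 565 in NR tumors. CC001F1 replicate 1 lay among the NR tumors and the other R tumors above them (1.63 ± 0.43). Tbx21, the transcription factor T-bet, differed by 1.74 ± 0.34, the protease Ctsw by 1.45 ± 0.37 and the death ligand Fasl by 1.41 ± 0.37. edgeR called 3 of the 7 and limma with line none.

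Of 12 genes for T cell checkpoints and exhaustion 6 were higher and none lower (median 1.06). Pdcd1, which encodes PD-1, had 151, 334 and 720.1 in R and 135, 59.4, 66.2, 60.2 and 187 in NR tumors. CC080F1 exceeded the lowest R tumor, CC001F1 replicate 1, and the difference was 1.84 ± 0.47 (DESeq2 adjusted p = 0.003). The inhibitory receptor Lag3 differed by 1.81 ± 0.36, the ectonucleotidase Entpd1 by 1.26 ± 0.19 and the receptor Cd244a by 1.01 ± 0.21, the last of these and Entpd1 without overlap. edgeR called 4 of the 6 and limma with line 1.

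Of 11 genes for regulatory T cells and costimulation 6 were higher, among them the chemokine receptor Ccr8 (1.44 ± 0.35) and the costimulatory receptors Icos (1.36 ± 0.34), Cd28 (1.11 ± 0.33) and Tnfrsf4 (0.81 ± 0.22). Foxp3, the transcription factor of regulatory T cells, had 64.7, 115 and 156 in R and 97.8, 69.6, 88.9, 70.2 and 120.4 in NR tumors and was not called (0.28 ± 0.26). edgeR called 1 of the 6 and limma with line none, and the count was 3 without CC075F1 replicate 1 or CC079F1 replicate 2.

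Receptors of the common gamma chain cytokines, which sustain T and NK cells, had 5 of 8 members higher and none lower. The shared chain Il2rg had 2091, 2867 and 4889 in R and 1546, 1071, 1407, 1394 and 1642 in NR tumors, without overlap, and differed by 1.24 ± 0.20 (DESeq2 adjusted p = 3.79e-07). Il2rb, used by the IL-2 and IL-15 receptors, had 524, 1296 and 2695 in R and 485, 350.5, 490.2, 712 and 784 in NR tumors. CC001F1 replicate 1 lay among the NR tumors (1.34 ± 0.38). Il4ra (0.58 ± 0.14) and Il15ra (0.34 ± 0.10) were also higher. edgeR called 3 of the 5 and limma with line 1.

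NK cell receptors had 6 of 12 members higher and none lower (median 1.20). Klrk1, the activating receptor NKG2D (ENSMUSG00000030149, chromosome 6, 129610323 to 129623864), had 604, 951 and 1848 in R and 341, 205, 237, 223 and 245 in NR tumors. Every R tumor lay above every NR tumor, and the difference was 2.18 ± 0.26 (DESeq2 adjusted p = 5.59e-14). Klrc1, an inhibitory NKG2 receptor (ENSMUSG00000030167, chromosome 6, 129666015 to 129678973), had 158, 354 and 749.5 in R and 112, 56.7, 76.6, 82.7 and 105 in NR tumors, again without overlap (2.19 ± 0.32). edgeR called 3 of the 6 and limma with line 1. The partner of Klrc1, Klrd1, differed by 1.82 ± 0.31 and Klre1 by 1.88 ± 0.45. Ncr1, which marks NK cells, differed by 1.21 ± 0.42 (DESeq2 adjusted p = 0.0461) and was not called by edgeR (adjusted p = 0.186). Klrk1, Klrc1 and Klrd1 are also made by activated CD8 T cells, and Klr genes are related in sequence.

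Type 1 conventional dendritic cells, which present antigen to CD8 T cells, had 5 of 11 marker genes higher and none lower (median 0.37). Differences were positive for 8 of the 11 and negative for 3. Cadm1, an adhesion molecule, had 1506, 2219 and 2692 in R and 921, 447, 858, 882 and 635 in NR tumors, without overlap, a difference of 1.53 ± 0.19 that held with line as a random effect (limma adjusted p = 0.00982). Xcr1, the chemokine receptor that marks these cells, had 48, 109 and 511 in R and 35.6, 16.2, 31.2, 17.5 and 95.2 in NR tumors. Its highest value came from CC001F1 replicate 2, CC080F1 exceeded 3 R tumors, and edgeR did not call it (2.15 ± 0.69, edgeR adjusted p = 0.105). Batf3 differed by 1.30 ± 0.39 and Wdfy4, needed for cross-presentation, by 0.48 ± 0.13. edgeR called 2 of the 5 and limma with line 1, Cadm1. The count was 3 without CC075F1 replicate 1.

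For type 2 conventional dendritic cells, Sirpa (0.70 ± 0.12), Itgax (0.99 ± 0.20) and Cd86 (0.82 ± 0.19) were higher of 6 tested. Macrophages express all of these too, and Cd209a was not called (-0.09 ± 0.59). Of 10 genes for mature migratory dendritic cells Cd40 was called (1.23 ± 0.28) and Ccr7, which guides them to lymph nodes, was not (0.24 ± 0.36). That is 10.0% higher, against 5.94% of all genes tested. None of 5 genes for plasmacytoid dendritic cells was called.

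**Figure D3:**
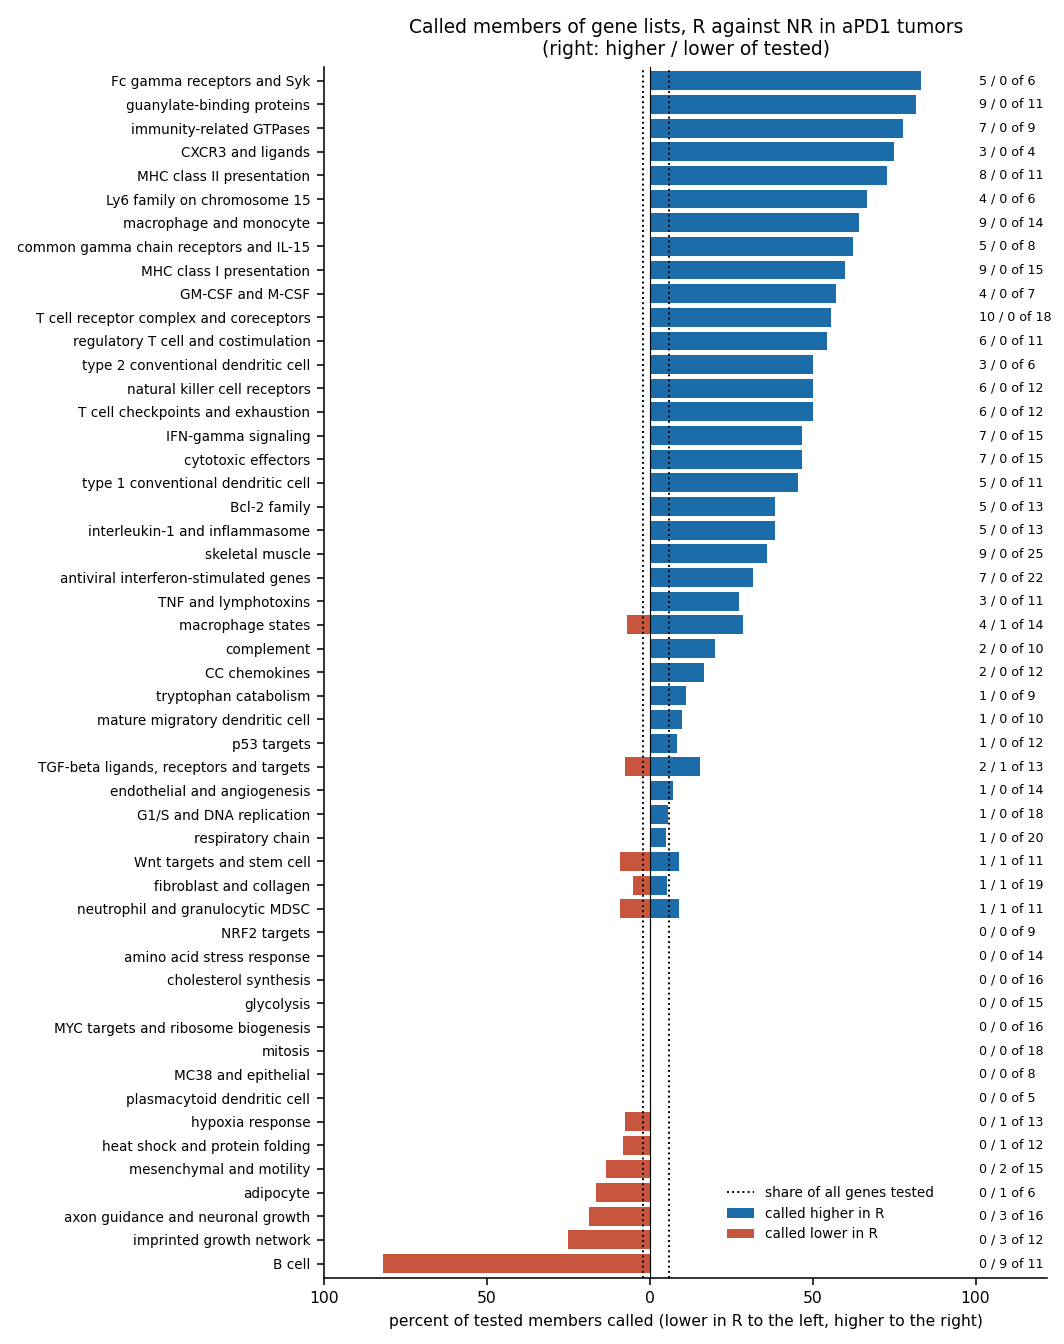
Percent of tested members called higher or lower in R than in NR aPD1 tumors for 51 gene lists, with the shares over all genes tested (5.94% higher, 1.99% lower) for comparison. Most immune lists exceeded the background for higher genes. Lists were chosen with earlier results of these data known, so this excess is a description and no test. The B cell list, with 9 of 11 members lower, fell to 1 without the 4 tumors carrying muscle or lymph node transcripts.

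Macrophage and monocyte genes had 9 of 14 members higher and none lower (median 0.71), of which edgeR called 7 and limma with line 3. C1qb, a chain of complement C1q made by macrophages, had 12151, 17702 and 22713 in R and 9653, 7219, 8379, 8830.4 and 10440.4 in NR tumors. The classes did not overlap, and the difference was 0.97 ± 0.14 (DESeq2 adjusted p = 7.4e-09). C1qa differed by 0.84 ± 0.13 and C1qc by 0.84 ± 0.14. Adgre1, which encodes F4/80, had 5019, 6348 and 9787 in R and 4440.1, 3257, 4447, 4386 and 4963 in NR tumors, with CC080F1 just below the lowest R tumor (0.70 ± 0.16). The summed level of the list was 149009 to 255609 in R and 95640.4 to 136983 in NR tumors.

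Macrophage state genes split. Slamf8 (1.00 ± 0.22), Slamf7 (1.57 ± 0.50), Ms4a4c (1.43 ± 0.46) and Acod1, which makes itaconate (1.68 ± 0.58), were higher in R, and the median of the list was -0.10. The higher count was 1 without CC001F1 replicate 2, CC075F1 replicate 1, CC036F1 replicate 2 or either CC079F1 tumor and 2 without CC080F1, and edgeR called 1. Folr2, a marker of resident macrophages, was lower, with 201, 271 and 406 in R and 356, 519, 322, 426 and 729 in NR tumors (-0.73 ± 0.22). It was not called by edgeR or without CC036F1 replicate 2 or CC080F1. Spp1, which encodes osteopontin, had 7335, 10025 and 11240.0 in R and 10675, 19895, 11143, 9505 and 8657 in NR tumors and was not called (-0.33 ± 0.19).

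Fc gamma receptors, which bind the constant region of IgG, and the kinase Syk had 5 of 6 members higher and none lower in each fit that left out 1 tumor. Fcgr4 had 1249.8, 3184 and 7140.5 in R and 1384, 737, 652, 939.9 and 746 in NR tumors. CC036F1 replicate 1 exceeded the lowest R tumor, CC001F1 replicate 1, and the difference was 2.08 ± 0.40 (DESeq2 adjusted p = 1.78e-05). Fcgr1 had 2323, 3649 and 6553 in R and 1804, 1366, 1722, 2013 and 2114 in NR tumors, without overlap (1.21 ± 0.28), and the signaling chain Fcer1g differed by 0.96 ± 0.16. edgeR called 4 of the 5 and limma with line 1. The member not called was the inhibitory receptor Fcgr2b (0.20 ± 0.27), which was highest in CC036F1 replicate 2.

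Of 7 genes for GM-CSF and M-CSF, growth factors of myeloid cells, and their receptors 4 were higher, of which edgeR called 3 and limma with line none. Csf2rb had 1817, 2448 and 3020.2 in R and 1791, 1770.5, 1399.5, 1371 and 1178 in NR tumors, without overlap (0.69 ± 0.14), Csf2rb2 differed by 0.94 ± 0.20 and Csf2ra by 0.71 ± 0.16. The ligand gene Csf2 had 2.87, 11.7 and 16.9 in R and 13.3, 15.5, 0, 0 and 2.09 in NR tumors and was not called.

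Inflammatory genes were called in part. Of 13 for interleukin-1 and the inflammasome 5 were higher, among them the adaptor Pycard (0.89 ± 0.18), the IL-18 inhibitor Il18bp (1.57 ± 0.35), the pore protein Gsdmd (0.30 ± 0.07) and Casp4 (0.53 ± 0.14). Il1b was not called (0.42 ± 0.37), and Il18bp overlaps Numa1 in the genome. Tnf had 296, 536 and 747 in R and 315, 235, 185, 258 and 192 in NR tumors. CC036F1 replicate 1 slightly exceeded CC001F1 replicate 1, and the difference was 1.20 ± 0.24 (DESeq2 adjusted p = 5.52e-05). Of the 11 TNF and lymphotoxin genes 3 were higher, and 1 without CC001F1 replicate 2, CC002F1 replicate 1, CC036F1 replicate 2 or CC079F1 replicate 1. In complement C3ar1 (0.80 ± 0.17) and C2 (1.12 ± 0.30) of 10 genes were higher, a count that was 4 without CC001F1 replicate 1 or CC080F1.

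Among 11 neutrophil genes Csf3r was higher (1.35 ± 0.36) and S100a9 lower. Each is 9.09%, where 5.94% of all genes tested were higher and 1.99% lower. S100a9 had 1.95, 11 and 13.7 in R and 66.3, 85.1, 20.8, 45.1 and 8.37 in NR tumors, with CC080F1 among the R tumors (-2.39 ± 0.62), and edgeR did not call it (adjusted p = 0.0591). S100a8 was not called (-0.66 ± 0.70).

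In the Bcl-2 family, which controls cell death, 5 of 13 genes were higher, including Bcl2a1d (1.24 ± 0.19), Bcl2a1b (0.76 ± 0.17) and the death promoters Bcl2l11 (0.60 ± 0.14) and Pmaip1 (0.65 ± 0.20). The count was 3 without CC001F1 replicate 2, CC002F1 replicate 1, CC075F1 replicate 1 or CC079F1 replicate 1, and the Bcl2a1 genes are near-identical copies whose reads are split with uncertainty. Of 6 Ly6 genes on chromosome 15, a family of surface proteins, 4 were higher. Ly6e had 12741, 15935 and 22747 in R and 10844, 9653, 9719, 11638 and 10333 in NR tumors, without overlap (0.73 ± 0.15), and Ly6a differed by 1.66 ± 0.36. edgeR called all 4 and limma with line none.

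**Figure D4:**
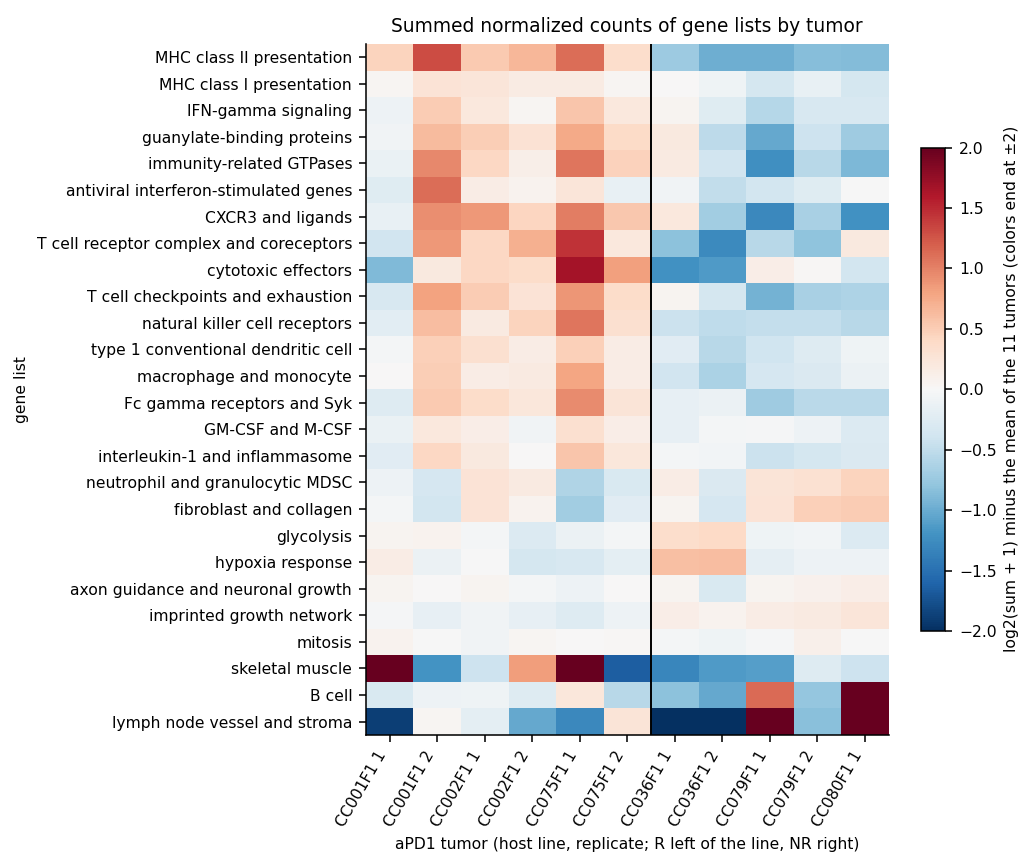
Summed normalized counts of 26 gene lists in each aPD1 tumor on a log2 scale, relative to the mean of the tumors. The sum of MHC class II genes was higher in each R tumor than in every NR tumor, whereas muscle genes were highest in CC001F1 replicate 1 and CC075F1 replicate 1 and lymph node genes in CC079F1 replicate 1 and CC080F1.

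Other genes named for size were spread over functions. Calhm6, a calcium homeostasis modulator (ENSMUSG00000046031, chromosome 10, 34126067 to 34127984), had 182, 351 and 782 in R and 78.9, 30.4, 69.1, 52.6 and 61.7 in NR tumors. The classes were well apart, and the difference was 2.79 ± 0.33 (DESeq2 adjusted p = 7.81e-14). Dnase1l3, a secreted DNase of dendritic cells and macrophages (ENSMUSG00000025279, chromosome 14, 7964533 to 7994573), had 430.1, 517 and 1275 in R and 138, 109, 95.6, 62.7 and 139 in NR tumors, again well apart (2.66 ± 0.30, DESeq2 adjusted p = 9.5e-16).

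Fgl2, a fibrinogen-like protein (ENSMUSG00000039899, chromosome 5, 21372642 to 21378374), had 3923, 6754 and 16609 in R and 3518, 1465, 1761, 2063 and 1874 in NR tumors. CC036F1 replicate 1 came close to the lowest R tumor, CC001F1 replicate 1, and the difference was 2.12 ± 0.44. Fgl2 lies within Ccdc146 in the genome, and whether their transcripts share bases was not tested. The lipid phosphatase Inpp5j (ENSMUSG00000034570, chromosome 11, 3494375 to 3504821) had 56.9, 148 and 406 in R and 27.9, 27, 4.73, 25.1 and 4.19 in NR tumors, without overlap (3.33 ± 0.53), and overlaps Pla2g3. Sectm1a (ENSMUSG00000025165, chromosome 11, 121067407 to 121081220) differed by 2.11 ± 0.37, Clic5 (ENSMUSG00000023959, chromosome 17, 44188584 to 44280172) by 1.92 ± 0.36 and the receptor gene Pira2 (ENSMUSG00000089942, chromosome 7, 3836812 to 3845051) by 1.93 ± 0.26. Pira2 belongs to a family of near-identical genes and is uncertain.

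Pianp (ENSMUSG00000030329, chromosome 6, 124996694 to 125003096), a ligand of PILR receptors, had the largest difference of the named genes (4.87 ± 0.85) and differed among R lines. The CC001F1 tumors had 17.9 and 15.5, the CC002F1 tumors 365 and 337 and the CC075F1 tumors 405 and 379. NR tumors had 4.19, 8.78, 10.4, 5.01 and 14.7. The CC001F1 tumors lay next to the NR tumors, and with line as a random effect Pianp was not called (limma adjusted p = 0.368).

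Genes lower in R differed less. Gap43, a growth cone protein of neurons (ENSMUSG00000047261, chromosome 16, 42248442 to 42340651), had 46.2, 62.3 and 82.4 in R and 159, 153, 182, 125 and 171 in NR tumors. Every R tumor lay below every NR tumor, and the difference was -1.31 ± 0.20 (DESeq2 adjusted p = 1.51e-08, limma with line 0.0198). Spry1, an inhibitor of receptor tyrosine kinase signaling (ENSMUSG00000037211, chromosome 3, 37639947 to 37644598), had 968, 1505 and 1869 in R and 2619, 2245, 2300.3, 2181 and 2219 in NR tumors, without overlap (-0.64 ± 0.15), and overlaps the gene model Gm42922. Ddit4, an inhibitor of mTORC1 induced by stress (ENSMUSG00000020108, chromosome 10, 59949669 to 59951834), had 1248, 1467 and 2328 in R and 3018, 3426, 2511, 2366 and 2482 in NR tumors. CC001F1 replicate 1 came close to the lowest NR tumor (-0.80 ± 0.16, DESeq2 adjusted p = 2.82e-05).

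The kinase Wnk3 (ENSMUSG00000041245, chromosome X, 151198078 to 151320152) differed by -0.82 ± 0.18, the adhesion receptor Adgrl3 (ENSMUSG00000037605, chromosome 5, 81020138 to 81825133) by -0.79 ± 0.15 and the acyltransferase Mboat2 (ENSMUSG00000020646, chromosome 12, 24830879 to 24964397) by -0.78 ± 0.19. Pyruvate carboxylase, Pcx (ENSMUSG00000024892, chromosome 19, 4510472 to 4621752), which overlaps Lrfn4, differed by -0.76 ± 0.15 and the glycogen branching enzyme Gbe1 (ENSMUSG00000022707, chromosome 16, 70313949 to 70569716) by -0.60 ± 0.12. The transporter Abca5 (ENSMUSG00000018800, chromosome 11, 110269369 to 110337716) had 543, 599 and 657 in R and 767, 972, 842, 929.9 and 1031 in NR tumors, without overlap (-0.60 ± 0.10). Ggt7 (ENSMUSG00000027603, chromosome 2, 155490379 to 155518237), which overlaps Acss2, differed by -0.60 ± 0.14, the netrin Ntn4 (ENSMUSG00000020019, chromosome 10, 93640681 to 93747207) by -0.52 ± 0.12 and Aplp1 (ENSMUSG00000006651, chromosome 7, 30434982 to 30445535), a relative of the amyloid precursor, by -0.52 ± 0.10.

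By list, axon guidance and neuronal growth had 3 of 16 members lower (18.8%) and none higher (median -0.07). Of all genes tested 1.99% were lower, and lists were chosen with earlier results of these data known. Beside Gap43 these were the guidance receptor Robo1 (-0.65 ± 0.15) and the adhesion molecule Ncam1 (-0.46 ± 0.11), and 1 was called without the 4 tumors. Imprinted growth genes had 3 of 12 lower and none higher (median -0.14). Grb10, an adaptor that restrains growth factor receptors, had 11427, 11898 and 13787 in R and 15989, 16013, 14861, 15297 and 14502 in NR tumors, without overlap (-0.33 ± 0.06, DESeq2 adjusted p = 5.77e-06). Gnas (-0.16 ± 0.05) and the growth factor Igf2 (-0.73 ± 0.25) were called by DESeq2 and not by edgeR, and H19, a noncoding RNA beside Igf2, had 316, 1842 and 4454 in R and 5725, 2419, 5217, 5813 and 11056 in NR tumors and was not called (-1.58 ± 0.63). The count was 1 without CC001F1 replicate 2, CC002F1 replicate 2, CC036F1 replicate 1 or CC079F1 replicate 1.

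Hypoxia genes had negative differences for 13 of 13 (median -0.40), and Ddit4 was the only one called. The summed level was 49199 to 69688 in R and 55563 to 96634 in NR tumors, and Car9, a carbonic anhydrase induced by hypoxia, had 319, 623 and 868 in R and 1069.7, 1350.5, 577, 779.5 and 398 in NR tumors, highest in both CC036F1 tumors (-0.43 ± 0.37). Without the 4 tumors 9 were called lower, in a fit where 2 of the 3 remaining NR tumors were from CC036F1, and 7 without the tumors with lymph node transcripts. Of 15 glycolysis genes none was called by DESeq2 or edgeR. The glucose transporter Slc2a1 had 5228, 8534 and 10954 in R and 17740.3, 17731, 9077, 9327 and 7778 in NR tumors, again highest in the CC036F1 tumors (-0.59 ± 0.28).

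Genes of tumor cells and stroma were called in some lists and not in others. Of 15 mesenchymal and motility genes 2 were lower (13.3%, against 1.99% of all genes tested) and none higher. They were the transcription factors Snai1 (-0.57 ± 0.12) and Zeb1 (-0.32 ± 0.10), the latter not called by edgeR. Vim was not called (0.07 ± 0.07). Herpud1, a gene of the endoplasmic reticulum stress response, had 3437, 3795 and 4137 in R and 4934, 5296, 4916, 4878 and 3979 in NR tumors and was lower (-0.36 ± 0.08), with CC080F1 among the R tumors. It was the 1 gene called lower of 12 for heat shock and protein folding, 4 without CC001F1 replicate 1. No gene of 18 for mitosis, 16 for MYC targets, 16 for cholesterol synthesis, 14 for the amino acid stress response and 9 for NRF2 targets was called by DESeq2 or edgeR. Mki67, a marker of cycling cells, had 22685, 23811 and 25619 in R and 22559.5, 19990.0, 23467, 27030.2 and 24508 in NR tumors, with full overlap (0.03 ± 0.08).

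Fibroblast and collagen genes had 1 of 19 higher, Thy1 (1.06 ± 0.35), which T cells also express, and 1 lower, Col5a1 (-0.62 ± 0.20). Each is 5.26%, where 5.94% of all genes tested were higher and 1.99% lower. edgeR called neither. Thy1 lost its call without CC001F1 replicate 2, CC075F1 replicate 1, or any tumor of CC002F1 or CC036F1. Col5a1 lost its call without any tumor of CC001F1, CC075F1, CC079F1 or CC080F1, and 5 members were lower without CC036F1 replicate 2. Of 14 endothelial genes 1 was higher, a share near that of all genes tested. This gene, Pecam1, had 1707, 2097 and 2871 in R and 818, 795, 1539, 1419 and 1656 in NR tumors, lowest in both CC036F1 tumors (0.84 ± 0.21). Of 7 smooth muscle genes Acta2 (1.19 ± 0.35) and Tagln (1.05 ± 0.27) were higher (28.6%). Acta2 was not called without the tumors with muscle transcripts (DESeq2 adjusted p = 0.0819). Of 13 genes of the TGF-β pathway 2 were higher (15.4%), among them the matrix protein Tgfbi (0.84 ± 0.16), and 1 lower (7.69%). limma with line called none of these endothelial, smooth muscle and TGF-β genes. The 9 muscle genes called higher and the 9 B cell genes called lower became 0 and 1 without the 4 tumors, and the B cell count was 0 without CC080F1.

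Several counts moved without the 4 tumors that carried muscle or lymph node transcripts. That fit held no CC080F1 tumor, and 2 of its 3 NR tumors were from CC036F1, so the shifts may reflect that line. The number of higher members went from 9 to 4 for MHC class I presentation, from 7 to 3 for antiviral interferon-stimulated genes, from 4 to 2 for macrophage states, from 3 to 1 for TNF and lymphotoxins, from 5 to 3 for the Bcl-2 family and from 2 to 1 for smooth muscle genes. It went from 1 to 4 for endothelial genes and from 10 to 15 for the T cell receptor complex. The number of lower members went from 1 to 3 for neutrophil genes, from 0 to 3 for glycolysis, from 1 to 4 for heat shock and protein folding and from 3 to 1 for imprinted growth genes. Among genes described above, H2-K1, Psmb8, Tgtp1, Ifit2, Cxcl11, Tnfrsf4, Il15ra, Batf3, Acod1, Slamf7, Pmaip1 and Acta2 lost their higher calls and Folr2, Zeb1, Col5a1, Robo1, Ncam1, Gnas and Igf2 their lower calls. Slc2a1, highest in the CC036F1 tumors, became lower (-0.95, DESeq2 adjusted p = 0.000662).

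The 12 isotype tumors came from other mice of the same lines. Differences there had the same sign for 945 of the 1019 higher genes (92.7%, against 51.1% of all tested genes) and for 305 of the 342 lower genes (89.2%, against 48.9%). Their medians were 0.31 and -0.22. The genes were picked by their calls in aPD1 tumors, which by itself tends to give smaller medians in isotype tumors. Both sets of tumors share the host lines, so the shared signs do not separate class from line genotype. In isotype tumors DESeq2 called 829 of 14995 genes (5.53%) and edgeR 30 of 24538 (0.122%). Of the aPD1 calls 177 higher genes (17.4%) and 94 lower genes (27.5%) were among them, which were 51.6% and 19.3% of the isotype calls in each direction.

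All 26 genes named for size had the same direction in isotype tumors, and 12 of the 14 higher and 7 of the 12 lower were called there. H2-Eb1 differed by 1.89 ± 0.38 in isotype tumors, Klrk1 by 1.24 ± 0.24, Adgrl3 by -0.77 ± 0.10 and Gbe1 by -0.69 ± 0.13. Medians of some lists in isotype tumors were 1.12 for MHC class II, 1.08 for the T cell receptor complex and 0.62 for NK receptors. They were 0.22 for macrophages and 0.10 for cytotoxic effectors. Of the 15 cytotoxic effectors 2 were called higher in isotype tumors and 0 by the interaction test given below.

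**Figure D5:**
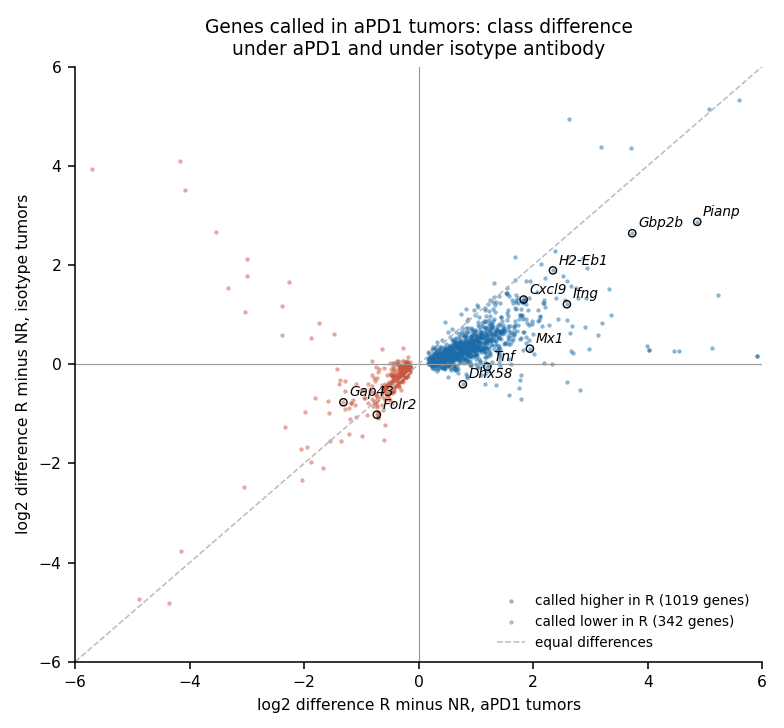
Log2 difference between R and NR tumors of the 1361 genes called under aPD1, in aPD1 tumors (x axis) and in the 12 isotype tumors (y axis), with 9 genes outside the axes. The sign was shared by 92.7% of higher and 89.2% of lower genes. Medians were 0.31 and -0.22 in isotype tumors and 0.83 and -0.37 in aPD1 tumors. The genes were picked by their calls in aPD1 tumors, which by itself tends to make medians larger there.

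Whether the class difference under aPD1 differed from that under isotype antibody was tested as an interaction over all 23 tumors. DESeq2 called 9 of 26342 genes (0.0342%) and edgeR 0, with 1932 at an unadjusted p under 0.05 in edgeR. Tnf (1.31 ± 0.30), Dhx58 (1.11 ± 0.25) and Bcl2l11 (0.67 ± 0.13) were among the 9, and their differences in isotype tumors were -0.05 ± 0.14, -0.40 ± 0.14 and -0.09 ± 0.10. None of the 26 genes named for size was called. The number called was 305 without CC001F1 aPD1 replicate 1 and 4 without CC080F1 isotype replicate 1.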

How the data were processed

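Tumor RNA was sequenced as poly(A) libraries (KAPA mRNA HyperPrep). The authors aligned reads with bowtie (Bowtie 1.2.3 per the submitters' processing notes) to transcriptomes of the founder strains (GRCm38) and deposited expected counts per gene from gbrs, which need not be whole. Counts were rounded here, and 26681 of 26869 gene IDs were named from GENCODE. Genes with at least 5 counts were fitted with DESeq2 1.42.0 (Wald test, default options, R 4.3.3), as in the study's methods, with Benjamini-Hochberg adjustment. edgeR 4.0.16 (quasi-likelihood) and limma 3.58.1 (host line random) were alternatives, with other scaling, filters, depth, line sums and left-out tumors. Where an adjusted p is printed it is from the tool named, otherwise from DESeq2. An adjusted p that DESeq2 left empty was not counted as tested. On counts simulated without an effect of host line, DESeq2 made false calls above its nominal rate, more than edgeR or limma did. That simulation cannot rank the tools for tumors that share lines, so the counts by each tool are given. Genes named for size had a mean of at least 100 and met the criteria given in the text, leaving out gene models and muscle, B cell and lymph node lists. From each of 57 lists up to 4 called genes a direction and its first gene were eligible. Members and lists were chosen with earlier results of these data known. A few list members are counted but their values are not reported here. Exceptions in lists, Irf1 and the printed promoters were named after their values were seen. Replicate tumors differed beyond sampling noise in all 5 pairs. The 2 shallow libraries held at most 16765492 counts and the 9 deep ones at least 39305203, so values of low genes are less precise in the former.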

Additional observations from a re-analysis of the deposited data

Results flagged for a closer look

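Among the named genes, 52 groups of 4 to 10 tumors were examined for a tumor standing apart from the rest of its group, which chance alone gives in about 1 of 20 groups, and 1 was found. Ggt7 in CC075F1 aPD1 replicate 1 had 459.8 normalized counts, the lowest of the R tumors. Of genes whose class difference under aPD1 differed from that under isotype antibody by the DESeq2 interaction test, Bcl2l11 (log2 0.67, DESeq2 adjusted p = 0.00351), Dhx58 (1.11, DESeq2 adjusted p = 0.0272) and Tnf (1.31, DESeq2 adjusted p = 0.0272) had the larger class difference under aPD1. Cr2 differed by -4.04 (DESeq2 adjusted p = 0.00727) and Glycam1 by a fitted -30.0 (DESeq2 adjusted p = 0.00385), which is no bound because libraries were at 0. Both are lymph node or B cell genes, which were high in CC079F1 aPD1 replicate 1 and CC080F1 aPD1 replicate 1, and the part of these tumors in the result was not tested. edgeR called none of these genes.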

How the results depend on the processing

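The 1361 genes called in aPD1 tumors became 560 with edgeR and 199 in the limma fit with line as a random term, and stayed within 1.5 times under the other settings, with 928 to 1577 when 1 tumor was left out. Replicate numbers did not pair tumors across lines (correlations of deviations -0.356 to 0.0276 over 10 pairs of lines), and with replicate number as a block 1252 were called. The interaction went from 9 genes to 0 with edgeR, 53 in deep libraries and 130 with the replicate block, and to 4 to 305 when 1 tumor was left out. The 829 isotype calls became 30 with edgeR and 402 to 1838 when 1 tumor was left out. Of named genes, Ighd turned from lower to a positive difference that was not called without the tumors with lymph node transcripts (1.28) and without the 4 tumors (1.58). No other named gene reversed under any setting run, 59 lost the call with edgeR and 121 with limma. The cause was not tested.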

Other observations

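Differences among the R lines stood beside the class differences for a few genes, picked after their values were seen and with no test. Mx1, an antiviral GTPase induced by type I interferon, had 2222 and 9381 normalized counts in the CC001F1 aPD1 tumors. The other R tumors had 1337 and 1064 (CC002F1) and 1579 and 1005 (CC075F1), and the NR tumors 496 to 1055. Ly6i, a surface protein of the Ly6 family, had 702 and 1895 in the CC001F1 tumors, 103 and 35.2 in the CC002F1 tumors, 255 and 91.9 in the CC075F1 tumors and 20.9 to 65.6 in the NR tumors. For both, CC001F1 replicate 1 lay above all tumors of other lines, although the same tumor was the lowest R tumor for Ifng, Cxcl9, Cd8a and Gzmb. Reads of Ly6 genes can be shared among relatives.

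Cd274, which encodes PD-L1, had 2983, 5252 and 7122 (lowest, median and highest) in R tumors. In NR tumors it had 4935 and 4110 (CC036F1), 1420 and 2141 (CC079F1) and 1948 (CC080F1), so that both CC036F1 tumors lay within the R range and the CC079F1 and CC080F1 tumors below it. It was not called by DESeq2 (0.82 ± 0.37, adjusted p = 0.171).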
